A study of Mus musculus with 6 samples.

Results

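The genes described are the 9 members of 3 systems by which a cell shows itself to T cells. MHC class I is represented by the heavy chains H2-K1 and H2-D1, the light chain B2m and the peptide transporter subunit Tap1. MHC class II is represented by the alpha chain H2-Aa, the beta chains H2-Ab1 and H2-Eb1 and the invariant chain Cd74. Cd274 encodes PD-L1. The members were taken by name from the 19069 genes listed on the plates, and all 9 were found on every plate. They were measured in single cells of colon tumors from 6 mice treated with azoxymethane and dextran sulfate sodium. Both groups carried floxed Zeb1 alleles. In 3 Fib ΔZeb1 mice (label Zeb1Fib-deleted) a Cre transgene under the Col6a1 promoter, which is active in part of the fibroblasts and other mesenchymal cells, deleted Zeb1. The 3 Fib Ctrl mice (label Zeb1Fib-Ctrl) lacked the transgene. The methods give a C57BL/6 background for this Cre line, and the labels give no further treatment and no age.

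Class I molecules carry peptides made in the cytosol, are found on nearly all nucleated cells and are read by CD8 T cells. Class II molecules carry peptides from endosomes to CD4 T cells and belong mainly to dendritic cells, macrophages and B cells, although fibroblasts and epithelial cells can make them under interferon gamma. PD-L1 binds PD-1 on T cells and dampens them. Interferon gamma is a common inducer of all 3 systems.

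Live cells negative for EPCAM, CD45 and CD31 had been sorted singly into the 384 wells of 1 plate per mouse, and the same well barcodes recur on every plate by design. Plates 1, 3 and 4 came from Fib Ctrl mice and plates 2, 5 and 6 from Fib ΔZeb1 mice, so that plate and mouse cannot be told apart. Molecules were counted once at their 3′ end, whatever their length. Wells with 100 to 6000 genes and under 10% mitochondrial transcripts numbered 1233 of 2304, namely 226, 298, 221, 136, 243 and 109 on plates 1 to 6. A plate held 1575726 to 3699058 transcripts. Levels are given in CPM, the transcripts of a gene per 1000000 transcripts summed over the wells of a type on a plate.

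Wells were assigned to cell types by marker lists that hold none of the 9 members. Fibroblast markers such as Col1a1 and Dcn gated 541 wells, and neutrophil markers such as S100a8 and Retnlg gated 439. A further 86 wells were gated as epithelial, 61 as pericyte-like, 15 as smooth muscle, 9 as T, NK or ILC, 8 as glia and 1 as macrophage or monocyte, while 73 met no gate. The label of the samples, CAFs, thus covered a minority of the wells on some plates: neutrophil-like wells numbered 20, 81, 188, 19, 64 and 67 on plates 1 to 6 although the sort had removed CD45-positive cells, and 330 of the 439 held transcripts of Ptprc, the gene of CD45. Fibroblast-gated wells numbered 171, 164, 17, 57, 117 and 15. Only 13 fibroblast-gated and 10 neutrophil-like wells led by less than 1.5 times over the next type. Zeb1 itself stood at 114, 114 and 96.4 CPM in the fibroblast-gated wells of the Fib Ctrl plates and at 58.2, 71.5 and 65.7 CPM in those of the Fib ΔZeb1 plates, without overlap.

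The promoters of the members are shown because class I and class II genes answer to partly different DNA elements. The Y box, a CCAAT element read by NF-Y, belongs to the module that CIITA uses at class II genes, and ISRE elements are read by interferon regulatory factors. The following stretches before the start sites come from RefSeq (GRCm38.p6), with the Y box of the class II genes and the ISRE-like letters of B2m in capitals.
H2-Aa, chr17:34287824-34287954, minus strand: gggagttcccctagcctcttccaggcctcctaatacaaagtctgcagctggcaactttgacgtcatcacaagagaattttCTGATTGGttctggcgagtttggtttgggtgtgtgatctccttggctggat
H2-Eb1, chr17:34305725-34305858, plus strand: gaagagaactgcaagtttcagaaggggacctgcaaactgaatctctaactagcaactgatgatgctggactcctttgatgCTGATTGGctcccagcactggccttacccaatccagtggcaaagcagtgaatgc
B2m, chr2:122147503-122147602, plus strand: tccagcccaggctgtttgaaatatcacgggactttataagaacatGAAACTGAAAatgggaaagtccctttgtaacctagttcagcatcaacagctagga
The Y box letters CTGATTGG, searched on both strands in the 250 bases before a start site, lay 51 bases before the start of H2-Aa, 62 before that of H2-Eb1, 53 before that of H2-D1 and 222 before that of Tap1. For H2-D1 the RefSeq stretch (chr17:35262844-35263143) lies inside the gene span given below, which begins at an earlier start. Its letters are thus within that span and not before it. They were in 3.83% of the 32851 promoters of the table. The ISRE-like letters, TTTC, 2 bases of any kind and TTTC again, were in 2.98% of promoters and, among the members, in that of B2m, on the opposite strand 139 bases before the start. The GAS-like letters TTCNNNGAA were in 7.02% of promoters and in none of the 7 members' windows searched. A match of letters is a description of the window and no evidence of binding. On GRCm38 the class II genes H2-Aa (chr17:34282744-34287823), H2-Ab1 (chr17:34257689-34269419) and H2-Eb1 (chr17:34305867-34316674) lie beside Tap1 (chr17:34187553-34197225) and between H2-K1 (chr17:33996017-34000347) and H2-D1 (chr17:35262730-35267499). B2m (chr2:122147686-122153083) and Cd274 (chr19:29367455-29388095) lie elsewhere.

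Class I transcripts were abundant in fibroblasts on every plate. B2m, the light chain shared by all class I molecules, stood at 2647, 4565 and 2409 CPM in the fibroblast-gated wells of plates 1, 3 and 4 and at 3287, 1850 and 2712 CPM in those of plates 2, 5 and 6. H2-K1, a classical heavy chain, ranged from 580 to 1159 CPM, and H2-D1, the other heavy chain, from 952 to 1692 CPM. Plate 3, with 17 fibroblast-gated wells, was highest for all 4 class I members. Tap1, which with Tap2 pumps peptides into the endoplasmic reticulum, was the least frequent class I transcript, at 12.3 to 97.4 CPM. Summed class I reached 4508, 7513 and 4111 CPM in Fib Ctrl and 5672, 3809 and 4256 CPM in Fib ΔZeb1 fibroblasts. Of the 541 fibroblast-gated wells, 521 held B2m and 170 held Tap1. In the last 500 transcript bases, where the 3′ reads fall, 9.53% of the 50-base stretches of H2-D1 and 0.443% of those of H2-K1 also occurred in another gene, so that a part of the reads of H2-D1 may be shared.

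Class II transcripts were sparse in the same fibroblasts. All 4 members together gave 200.02 transcripts in 96 of the 541 wells, against 32240 class I transcripts. H2-Ab1 was the most frequent, with 114 transcripts in 63 wells, or 23.1, 42.3 and 30.2 CPM on the Fib Ctrl plates and 10.8, 2.98 and 24.7 CPM on the Fib ΔZeb1 plates. Cd74, which chaperones class II dimers, gave 45.02 transcripts in 29 wells, H2-Aa 23 in 18 wells and H2-Eb1 18 in 14 wells. The beta chain H2-Ab1 was thus found mostly without its partners: 48 of the 96 wells held H2-Ab1 alone, and 1 well held all 4 members. With so few transcripts per well, a gene can be missed where it is expressed, so that these counts do not show that the partners were absent. The richest well of the plates, described next to the mitochondrial limit, held all 4 genes, but with 1184.99 class II transcripts.

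Cd274 was rare in fibroblasts, with 42 transcripts in 26 of the 541 wells. Its level was 7.54, 29.6 and 2.88 CPM on plates 1, 3 and 4 and 5.60, 1.99 and 8.22 CPM on plates 2, 5 and 6. The plates of both genotypes overlapped.

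**Figure D1:**
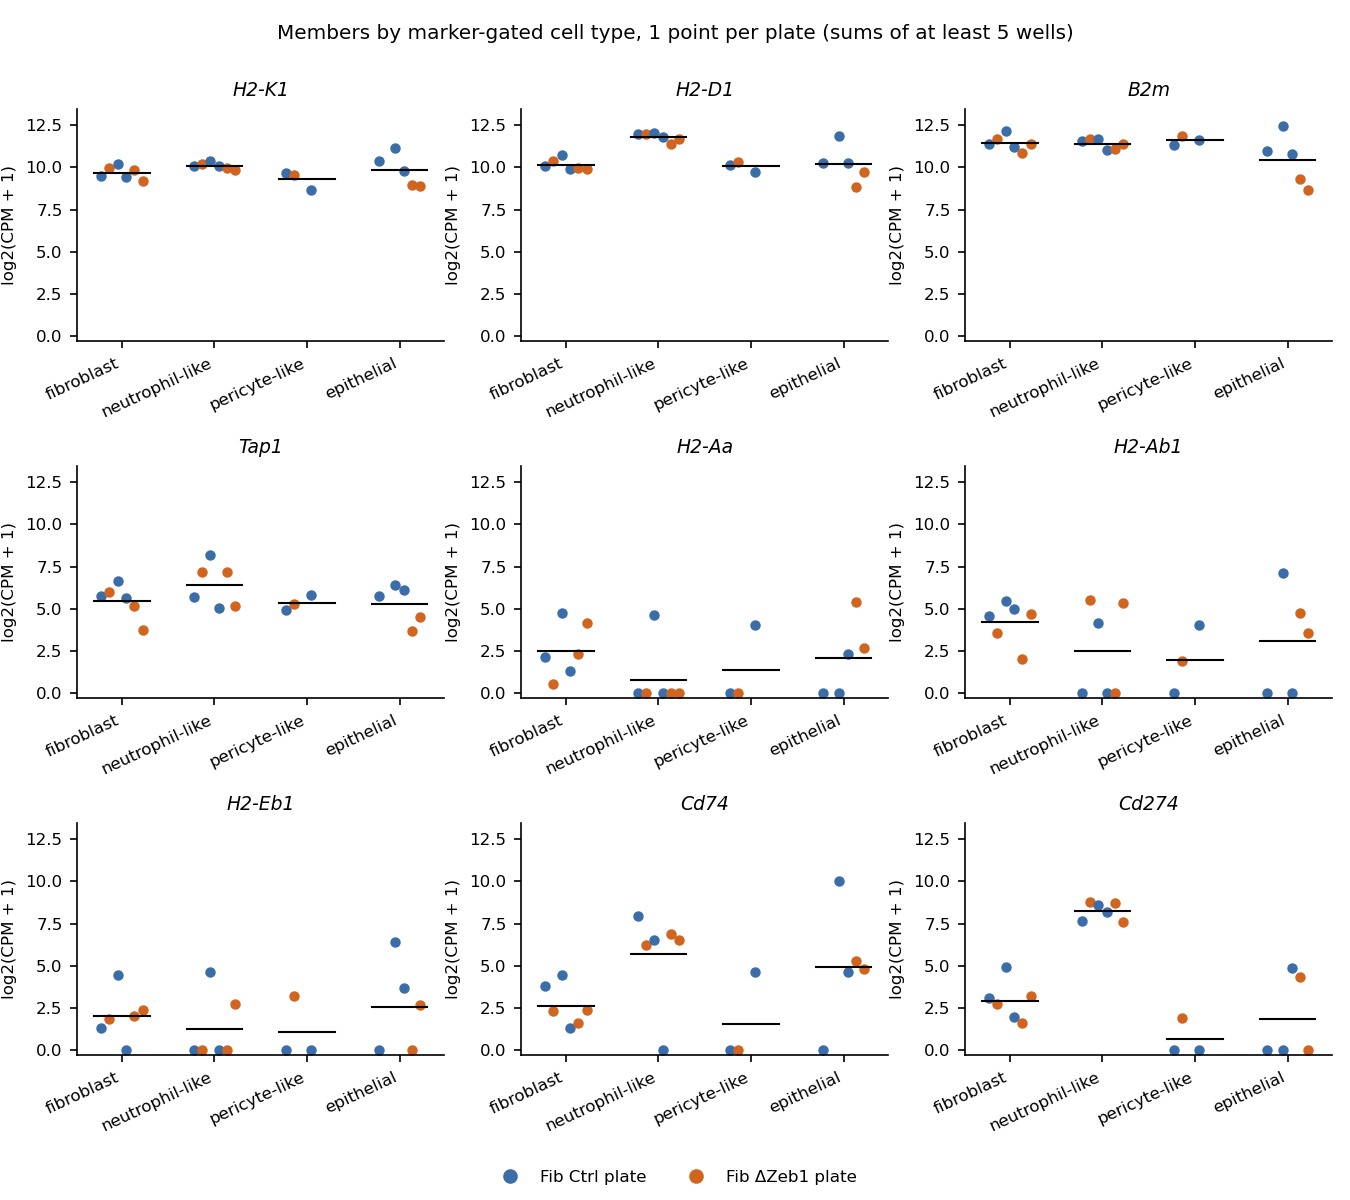
Level of each of the 9 members as log2(CPM + 1) in fibroblast, neutrophil-like, pericyte-like and epithelial wells, 1 point per plate with at least 5 wells of the type and a line at the mean, blue for Fib Ctrl and orange for Fib ΔZeb1 plates. Cd274 was above 193 CPM in the neutrophil-like wells of each plate and below 30 CPM in the fibroblasts of each plate, while the H2-K1 and B2m levels of these types overlapped.

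Of the 6 members tested between cell types, Cd274 had the largest difference, and it was higher in neutrophil-like wells. Each cell type was compared with the fibroblast-gated wells of the same plates by edgeR's quasi-likelihood test with the plate as a block, over 7576 genes. Of these, 59.5% were called in neutrophil-like wells at an adjusted p under 0.05 (22% of the genes tested higher and 37.6% lower), and 5 of the 6 members tested were higher and 0 lower. H2-Aa, H2-Ab1 and H2-Eb1 were too low to pass the filter on counts. Cd274 stood at 199, 389 and 286 CPM in the neutrophil-like wells of the Fib Ctrl plates and at 435, 426 and 194 CPM in those of the Fib ΔZeb1 plates, with no overlap with the fibroblasts. Its log2 fold change was 5.86 (SE 0.46, adjusted p = 2.76e-15, edgeR, 6 plates), and it stayed between 5.54 and 6.13 in the 11 alternatives. Neutrophil-like wells held 249.03 of the 321 Cd274 transcripts of all wells past the limits, or 77.6%, although they made up 35.6% of the wells and 1433 transcripts was their median depth against 11768 in fibroblasts. Cd274 was found in 142 of the 439 neutrophil-like wells (32.3%, exact binomial interval 27.99% to 36.94%) and in 26 of the 541 fibroblast-gated wells (4.81%, 3.16% to 6.96%). With every well thinned to 1000 barcodes, and 132 neutrophil-like and 27 fibroblast-gated wells left out as shallower, the shares were 25.1% (77 of 307 wells) and 0.973% (5 of 514 wells). These intervals cover counting error only.

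Cd74 was the other member with a wide gap between neutrophil-like wells and fibroblasts. It stood at 249, 72.6, 89.8, 0, 116 and 91.1 CPM on plates 1 to 6 in the neutrophil-like wells and at 1.44 to 21.2 CPM in fibroblasts, a log2 fold change of 4.28 (SE 0.61, edgeR adjusted p = 7.45e-08). Only plate 4, where neutrophil-like wells gave 0 Cd74 transcripts, overlapped with the fibroblasts. In 47 of 73 neutrophil-like wells with class II transcripts the transcript was Cd74, while H2-Ab1 was found in 14, and 1 well held more than 1 of the 4 genes. Cd74 was thus detected mostly without the class II chains. These 73 wells held 102 class II transcripts in all, so that few of them could show more than 1 gene. The counts do not show that the chains were absent. The dendritic cell list, summed, stood at 63.6 to 155 CPM in neutrophil-like wells and at 8.22 to 25.4 CPM in fibroblasts, with Flt3, Zbtb46, Batf3 and Ccr7 at 0 in the former. The macrophage list stood at 200 to 509 CPM against 86.2 to 241 CPM, with C1qa, Fcgr1, Ms4a7 and Mrc1 at 0. The part of these cell types in the levels of Cd74 and of the protease Ctss was not tested.

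Among the class I members, H2-D1 differed most between neutrophil-like wells and fibroblasts. It ranged from 2686 to 4275 CPM against 952 to 1692 CPM, without overlap, with a log2 fold change of 2.00 (SE 0.32, edgeR adjusted p = 8.46e-07). Tap1 was also higher, by 1.71 (SE 0.39, edgeR adjusted p = 0.000226), with 31.8 to 293 CPM against 12.3 to 97.4 CPM. H2-K1 was higher by 0.77 (SE 0.31, edgeR adjusted p = 0.033), a call lost in 7 of 11 alternatives. B2m differed by 0.35 (SE 0.34, edgeR adjusted p = 0.37). The median log2 difference of all genes tested was -0.70, and DESeq2's scaling moved genes by a further -0.30, so that both heavy chains and the light chain stood above the median gene. Of the other genes of the class I route, the peptide loading chaperones Canx and Calr and the immunoproteasome subunit Psmb10 were lower in neutrophil-like wells, by -2.42, -1.54 and -3.32. Over the 12 route genes that are not members, 2 were higher and 5 lower, near the shares of all genes tested (22% higher and 37.6% lower). The higher ones were the immunoproteasome subunit Psmb9 (2.02) and Nlrc5 (2.71), the transactivator of class I genes. Of the other class I genes, H2-Q10 (6.25) and H2-K2 (4.65), whose near-identical copies make the assignment of reads uncertain, were higher, and Fcgrt, the neonatal Fc receptor, was lower (-3.62). Of the class II route, the protease Ctss, which trims the invariant chain, was higher (5.49), and the protease Lgmn and the thiol reductase Ifi30 were lower (-3.85 and -3.38).

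The interferon list moved in both directions in neutrophil-like wells: of 23 genes tested, 10 were higher and 5 lower, with a median of 0.46. Of all genes tested 22% were higher and 37.6% lower, with a median of -0.70. Isg15 was higher by 4.58, the kinase Jak2, which lies downstream of the interferon gamma receptor, by 3.04 and Irf7 by 2.64, and the GTPase Iigp1 was lower by -4.07. Cd274 was the 1 gene called higher of the 9 tested co-inhibitory and costimulatory ligands. Pvr (-2.03), Tnfsf9 (-3.74) and Pvrl2 (-2.02) were lower.

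Epithelial wells, led by Krt5, Krt14 and Cldn4, were compared on plates 1, 3, 4, 5 and 6. Of all genes 28.9% were called (12.2% higher and 16.6% lower), and of the 6 members tested 1 was higher and 1 lower. Cd74 stood at 0, 1048, 23.6, 38.0 and 26.6 CPM against 1.44 to 21.2 CPM in fibroblasts, a log2 fold change of 3.27 (SE 0.62, edgeR adjusted p = 3.73e-05). The high value of plate 3 rested on 5 wells, of which 1 held 37.16 of the 38 Cd74 transcripts, and the call held in 11 of 11 alternatives, with a lowest value of 2.12. B2m was lower by -1.10 (SE 0.37, edgeR adjusted p = 0.0196), at 2000, 5671, 1770, 639 and 400 CPM. That call was lost without plate 5 or without plate 6. Of the class I route's other 12 genes 0 were higher and 4 lower, among them the immunoproteasome subunits Psmb8 (-1.51), Psmb9 (-1.82) and Psmb10 (-1.52). Of the interferon list 15 of 23 were lower and 0 higher, with a median of -1.61 and Iigp1 at -6.89. Of 9 co-inhibitory and costimulatory ligands tested 2 were higher and 3 lower. Vtcn1 (4.86), which encodes the co-inhibitory ligand B7-H4, and Pvrl2 (1.86) were higher, and Lgals9 (-2.36), Icosl (-3.13) and Cd47 (-1.19) were lower. H2-K1, H2-D1, Tap1 and Cd274 differed by -0.08 (SE 0.33), -0.21 (SE 0.33), -0.45 (SE 0.45) and 1.03 (SE 0.65), with no call.

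Pericyte-like wells, led by Rgs5, could be compared on plates 1, 2 and 4. Of all genes 11.8% were called (5.35% higher and 6.41% lower), and of the 6 members tested 0 were. B2m differed from fibroblasts by 0.02 (SE 0.44), H2-D1 by -0.22 (SE 0.40), H2-K1 by -0.50 (SE 0.41) and Tap1 by -0.53 (SE 0.52). Cd274, with 1 transcript in 61 wells, differed by -2.08 (SE 1.30), and Cd74, with 3 transcripts from 1 plate, by 0.23 (SE 1.37). At these errors, differences in class I of the size seen in neutrophil-like H2-K1 were not detectable. Of the interferon list 1 of 23 genes was higher (Ifngr2, 1.81), and Ifngr1 (-2.40), the ligand-binding chain of the interferon gamma receptor, and Gbp4 (-4.12) were lower.

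The class II level of a plate depended on a few wells. In the 1233 wells past the limits the 4 genes gave 495.3 transcripts, and 5 wells with at least 10 transcripts held 29.9% of them. Of these 5 wells, 3 also held Ptprc. Summed class II over all wells past the limits was 60.3, 192 and 35.8 CPM on plates 1, 3 and 4 and 20.1, 42.1 and 68.4 CPM on plates 2, 5 and 6. In wells with 0 Ptprc transcripts it was 28.3, 269.5 and 37.2 CPM and 16.3, 34.1 and 50.6 CPM. Without the Ptprc wells the level was thus lower on plates 1, 2, 5 and 6 and higher on plates 3 and 4, with the widest gaps on plates 1 and 3. In the 365 wells with Ptprc it was 1122, 127 and 0 CPM and 73.9, 119 and 114 CPM.

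Most class II transcripts of the plates lay outside the limits on genes and mitochondrial transcripts. Wells outside them held 2101.54 of the class II transcripts, or 80.9%, and 11 of these wells with at least 10 transcripts held 89.3% of that sum. The 82 wells under 100 genes gave 1 class II transcript in all. The richest well, on plate 3, held 1184.99 class II transcripts, or 5.19% of its transcripts, with 262 of H2-Aa, 340 of H2-Ab1, 178 of H2-Eb1 and 405 of Cd74. It also held 24.07 transcripts of Xcr1 and 6 of Itgax, markers of dendritic cells, 14.02 of Ptprc and 15.03 of Cd274. Its mitochondrial share was 10.5%, just over the limit of 10%.

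**Figure D2:**
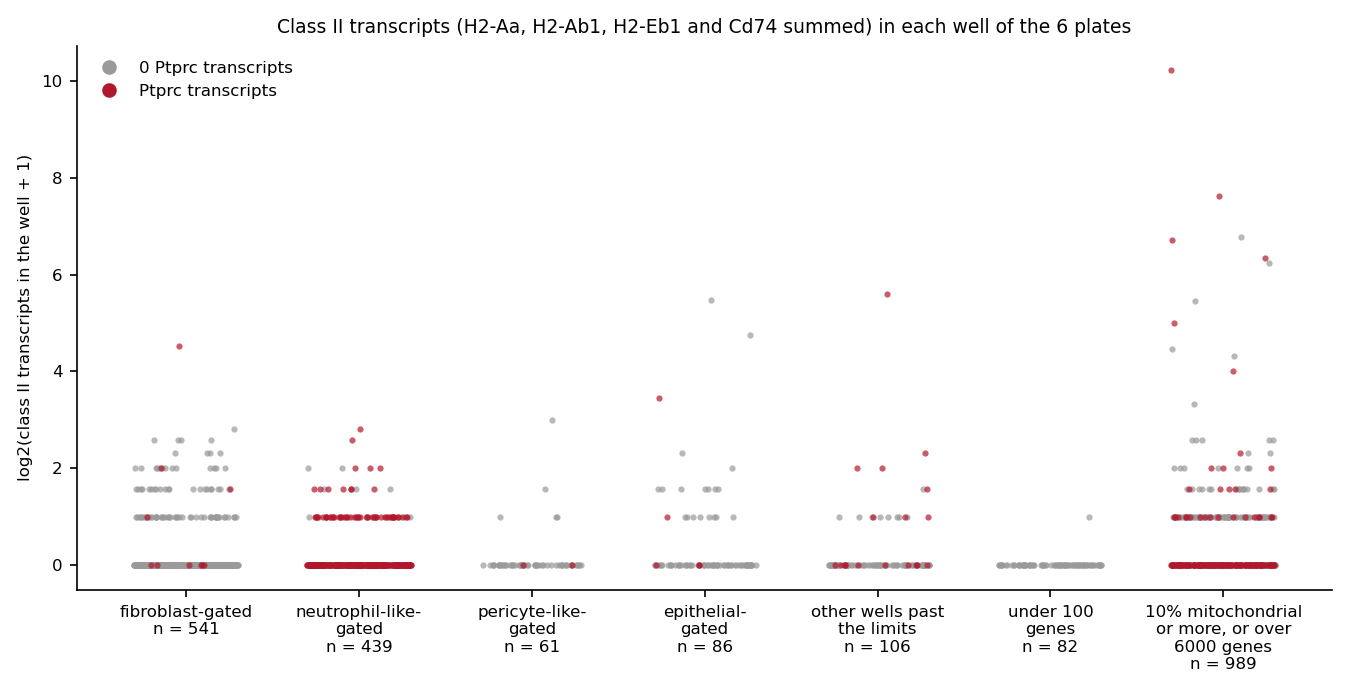
Class II transcripts per well as log2(transcripts + 1), by cell type for wells past the limits and for wells outside them, red for wells with Ptprc transcripts and grey for wells without. In fibroblast-gated wells without Ptprc no well reached 10 transcripts, and the richest wells stood in the column outside the limits.

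Among fibroblasts, class II transcripts were few per well. At least 3 class II transcripts were found in 24 of the 541 fibroblast-gated wells (4.44%, exact binomial interval 2.86% to 6.53%). Without the 10 wells that held Ptprc, 22 of 531 remained (4.14%, 2.61% to 6.21%). At least 10 transcripts were found in 1 fibroblast-gated well, which held 22.02 and also Ptprc. Beside 10 fibroblast markers, that well held 4 genes of the macrophage list. None of the 531 wells without Ptprc reached 10, which allows a share of up to 0.565%. A fibroblast-gated well outside the limits, with 104.35 class II transcripts, held 10 fibroblast markers and 8 genes of the macrophage list. For comparison, wells with at least 3 class II transcripts numbered 7 of 439 among neutrophil-like, 5 of 86 among epithelial and 1 of 61 among pericyte-like wells. Among the wells under 100 genes, with a median of 75.5 transcripts, they numbered 0 of 82, which allows up to 3.66%. The count of fibroblast-gated wells with at least 3 differed between plates, with 9 of 171, 4 of 17 and 4 of 57 wells on plates 1, 3 and 4 and 3 of 164, 1 of 117 and 3 of 15 on plates 2, 5 and 6. At 1000 barcodes per well, 8 of 514 fibroblast-gated wells (1.56%) held any class II transcript, against 17.7% before thinning, so that the share depends on depth.

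Fibroblasts were then divided by marker lists. Pi16, Ptx3 and 6 further genes marked 182 iCAF-like wells, Wnt5a, Bmp7, Mmp10 and others 127 telocyte-like wells, and Cxcl13, Grem1 and others 148 wells called Cxcl13/Grem1 fibroblasts. Another 78 fibroblast-gated wells met none of the lists, and 6 met a list led by Myoc and Angptl7. Those 6 wells held 0 class II transcripts and could not be fitted. The lists hold no member, and each subtype was compared with the other fibroblast-gated wells of the same plates. As sums over wells, these levels do not tell fewer expressing cells from less RNA per cell.

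iCAF-like fibroblasts had less of every class I member. iCAFs are the inflammatory type of cancer-associated fibroblast, and these wells also carried Pi16, a gene of adventitial fibroblasts. On plates 1 to 5, B2m stood at 1521, 1470, 2091, 906 and 1332 CPM in iCAF-like wells and at 3392, 3644, 5600, 2583 and 2821 CPM in the other fibroblasts. H2-K1 stood at 376, 477, 661, 209 and 683 CPM against 962, 1106, 1367, 738 and 1363 CPM. H2-D1 stood at 580, 790, 733, 306 and 768 CPM against 1411, 1424, 2093, 1045 and 1448 CPM. None of the 3 genes overlapped between the groups, and all were lower in 5 of 5 plates. Tap1 ranged from 13.9 to 28.7 CPM against 53.0 to 126 CPM, again lower on 5 of 5 plates. Summed class I was 1434 to 3514 CPM against 4419 to 9185 CPM. B2m, H2-D1 and H2-K1 were found in 98.9%, 95.1% and 90.7% of the iCAF-like wells, so that most of these wells held them. Over all fibroblast-gated wells the shares were 96.3%, 93.3% and 91.7%. Tap1 was found in 19.8% of the iCAF-like and 31.4% of all fibroblast-gated wells.

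The test over 8976 genes called 14% in iCAF-like wells (6.58% higher and 7.4% lower) and, of the 9 members, 5 lower and 0 higher. The log2 fold changes were -1.21 (SE 0.17, adjusted p = 1.16e-05) for B2m, -1.17 (SE 0.19, adjusted p = 9.14e-05) for H2-K1, -1.15 (SE 0.19, adjusted p = 0.00014) for H2-D1 and -1.59 (SE 0.28, adjusted p = 0.000221) for Tap1, all by edgeR. These 4 calls held in 12 of 12 alternatives. H2-Ab1 was lower by -2.03 (SE 0.56, edgeR adjusted p = 0.0156), with 10 transcripts in 182 wells against 104 in the other 359, and lost its call without plate 1 (edgeR adjusted p = 0.0779). Of those 104 transcripts, 85 were in telocyte-like wells. The macrophage list, summed, stood at 0 to 76.2 CPM in iCAF-like wells, with 5 of its 10 genes detected and Csf1r, Emr1, Fcgr1, Ms4a7 and Mrc1 at 0, and at 122 to 268 CPM in the other fibroblasts. Its part in the difference in H2-Ab1 was not tested. The other class II members did not share that direction. H2-Eb1 had 12 transcripts in iCAF-like wells against 6 in the others, with a log2 difference of 2.57 (SE 1.06) and no call, and H2-Aa and Cd74 differed by 0.97 (SE 0.94) and 0.73 (SE 0.72), the latter with a sign that turned in 4 of 12 alternatives. Of the 53.02 class II transcripts of iCAF-like wells, 22.02 came from the 1 well with Ptprc. Cd274 gave 3 transcripts against 39, a log2 difference of -2.15 (SE 1.04, edgeR adjusted p = 0.214).

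**Figure D3:**
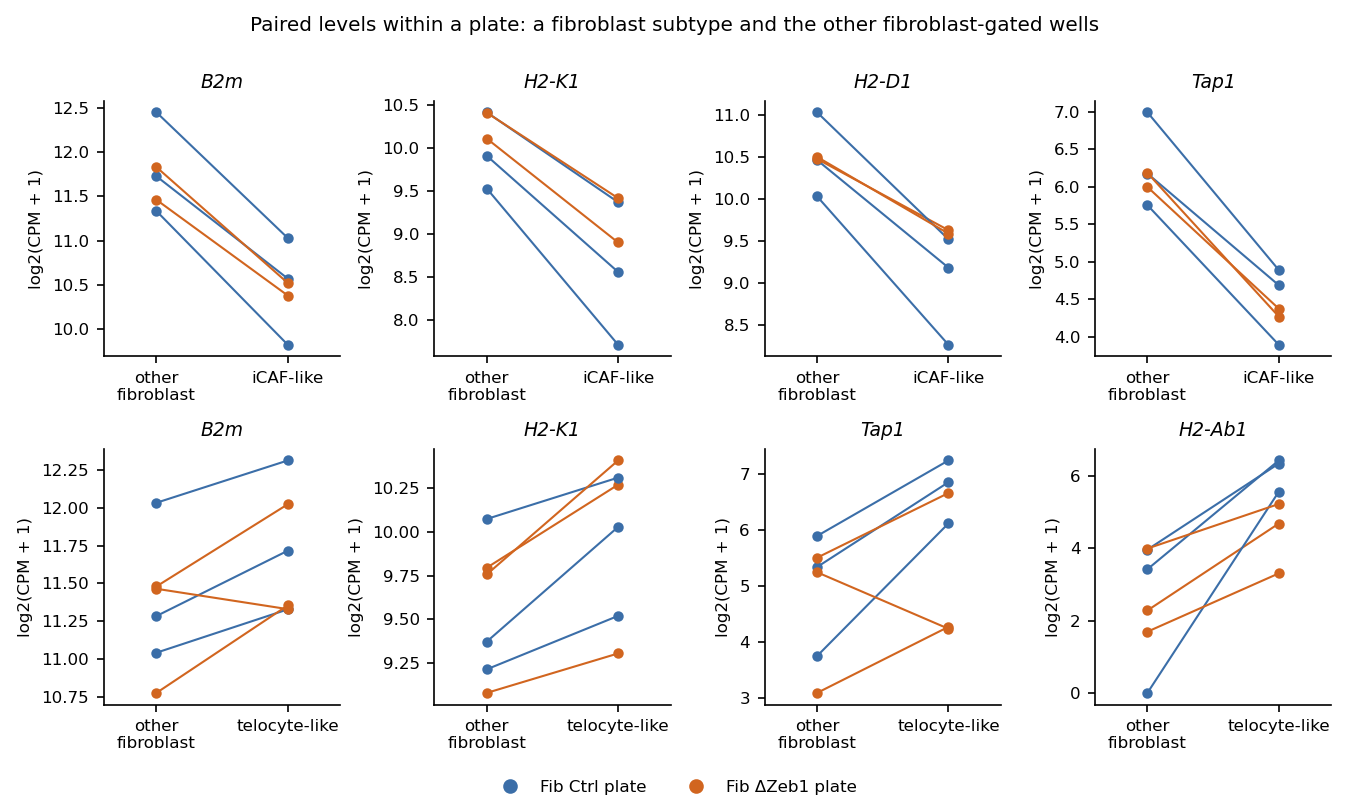
Levels of members as log2(CPM + 1) in a subtype and in the other fibroblast-gated wells of the same plate, joined by a line, blue for Fib Ctrl and orange for Fib ΔZeb1 plates. All 4 class I members fell on each of the 5 plates with iCAF-like wells, and H2-Ab1 was higher in telocyte-like wells on each of 6 plates; the axes of the panels do not start at 0.

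Part of the wider class I route was lower in iCAF-like fibroblasts as well. Of its 11 tested genes that are not members, 3 were lower and 0 higher, with a median of -0.44 against -0.06 over all genes. Of all genes tested, 7.4% were lower and 6.58% higher. They were Psmb8 (-1.68, SE 0.25), Psmb9 and Psmb10, the subunits of the immunoproteasome, which cuts peptides for class I. Tap2, the partner of Tap1, and the chaperones Calr and Canx were not called. Of the other class I genes, H2-T23, which encodes Qa-1, was lower (-1.02, SE 0.28). In the class II route the protease Lgmn was lower (-1.71, SE 0.25). In the list of interferon gamma genes, 13 of 26 tested genes were lower and 1, Ifit1, was higher, with a median of -1.01. The transcription factor Irf8 was lower by -3.32 (SE 0.35), the GTPase Iigp1 by -2.72 (SE 0.27) and the chemokine Cxcl9 by -4.32 (SE 0.51). Gbp4, also lower, gave 0 transcripts in iCAF-like wells against 240.4 in the others. Among the ligands of T and NK cell receptors, Pvr (1.33) and Cd276 (1.43), the gene of B7-H3, were higher, and Icosl (-1.55) and Pvrl2 (-1.31) were lower.

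Telocyte-like fibroblasts had more H2-Ab1. Telocytes are fibroblasts with long processes beneath the epithelium that make Wnt and Bmp ligands, and here the leading genes were Mmp13, Mmp10 and Il1rl1. On plates 1 to 6, H2-Ab1 stood at 85.4, 24.7, 80.4, 46.4, 8.90 and 36.5 CPM in telocyte-like wells and at 9.72, 3.86, 14.6, 0, 2.24 and 15.0 CPM in the other fibroblasts. It was higher in the telocyte-like wells of each plate, although the ranges over plates overlapped. H2-Ab1 was found in 14 of 24, 12 of 44, 2 of 7, 11 of 38, 1 of 8 and 2 of 6 telocyte-like wells, 42 of 127 in all (33.1%). In iCAF-like wells it was found in 5 of 182 (2.75%) and in Cxcl13/Grem1 fibroblasts in 9 of 148 (6.08%). Telocyte-like wells were somewhat deeper, with a median of 14755 transcripts against 11052 in the others. At 1000 barcodes per well, H2-Ab1 remained in 5 of 127 telocyte-like wells (3.94%, exact binomial interval 1.29% to 8.95%), in 0 of 180 iCAF-like wells, which allows up to 1.67%, and in 0 of 148 Cxcl13/Grem1 wells, which allows up to 2.03%.

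The test over 7009 genes called 14.5% in telocyte-like wells (6.76% higher and 7.75% lower) and, of the 5 members tested, 2 higher and 0 lower. H2-Ab1 was higher by 2.67 (SE 0.44, edgeR adjusted p = 0.000875), between 1.67 and 2.93 in the 12 alternatives that gave a value. Without plate 1 it did not pass the filter on counts, and without that plate and without the filter it was higher by 2.47 (edgeR adjusted p = 0.00101). Tap1 was higher by 1.10 (SE 0.30, edgeR adjusted p = 0.0222), a call lost in 7 of 13 alternatives, and was lower on plate 5. B2m, H2-D1 and H2-K1 differed by 0.20, 0.30 and 0.30 (SE 0.15 each) with no call, and the heavy chains were higher on 6 of 6 plates. The remaining class II members did not follow H2-Ab1: telocyte-like wells held 3 transcripts of H2-Aa, 2 of H2-Eb1 and 10 of Cd74 beside 85 of H2-Ab1, and 33 of the 46 wells with class II transcripts held H2-Ab1 alone. None of the 3 was frequent enough to be tested, nor was Cd274, with 20 transcripts.

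Of the interferon list, 6 of 24 tested genes were higher in telocyte-like wells and 0 lower, with a median of 0.92. Of all genes tested, 6.76% were higher and 7.75% lower. The GTPase genes Gbp4 and Gbp6 were higher by 2.47 (SE 0.47) and 2.07 (SE 0.44), and Cxcl9 by 3.90 (SE 0.81). These genes were lower in the iCAF-like wells, which are part of the wells that the telocyte-like wells were compared with, so that both comparisons share wells. Of the class I route's other genes 0 of 11 were called, with Psmb8 (0.72, SE 0.23, edgeR adjusted p = 0.056) and Psmb9 (1.27, SE 0.42, edgeR adjusted p = 0.057) nearest to the threshold. Fcgrt (-0.71), Pvr (-1.31) and Cd47 (-0.60), the latter a signal against phagocytosis, were lower.

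Transcripts of immune markers were examined beside H2-Ab1. The macrophage list, summed, stood at 151 to 314 CPM in telocyte-like wells and at 51.5 to 145 CPM in the other fibroblasts, with 7 of its 10 genes detected and Emr1, Fcgr1 and Ms4a7 at 0. The dendritic cell list stood at 0 to 69.4 CPM against 0 to 12.01 CPM, and the list of pan-immune genes at 2.67 to 80.4 CPM against 16.5 to 95.1 CPM. In wells with 0 Ptprc transcripts the difference in H2-Ab1 was 2.93 (edgeR adjusted p = 0.000837), an alternative chosen after the data had been seen. Only 1 of the 42 telocyte-like wells with H2-Ab1 held Ptprc, so that this alternative could change little. The part of immune transcripts in the difference in H2-Ab1 was not tested.

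**Figure D4:**
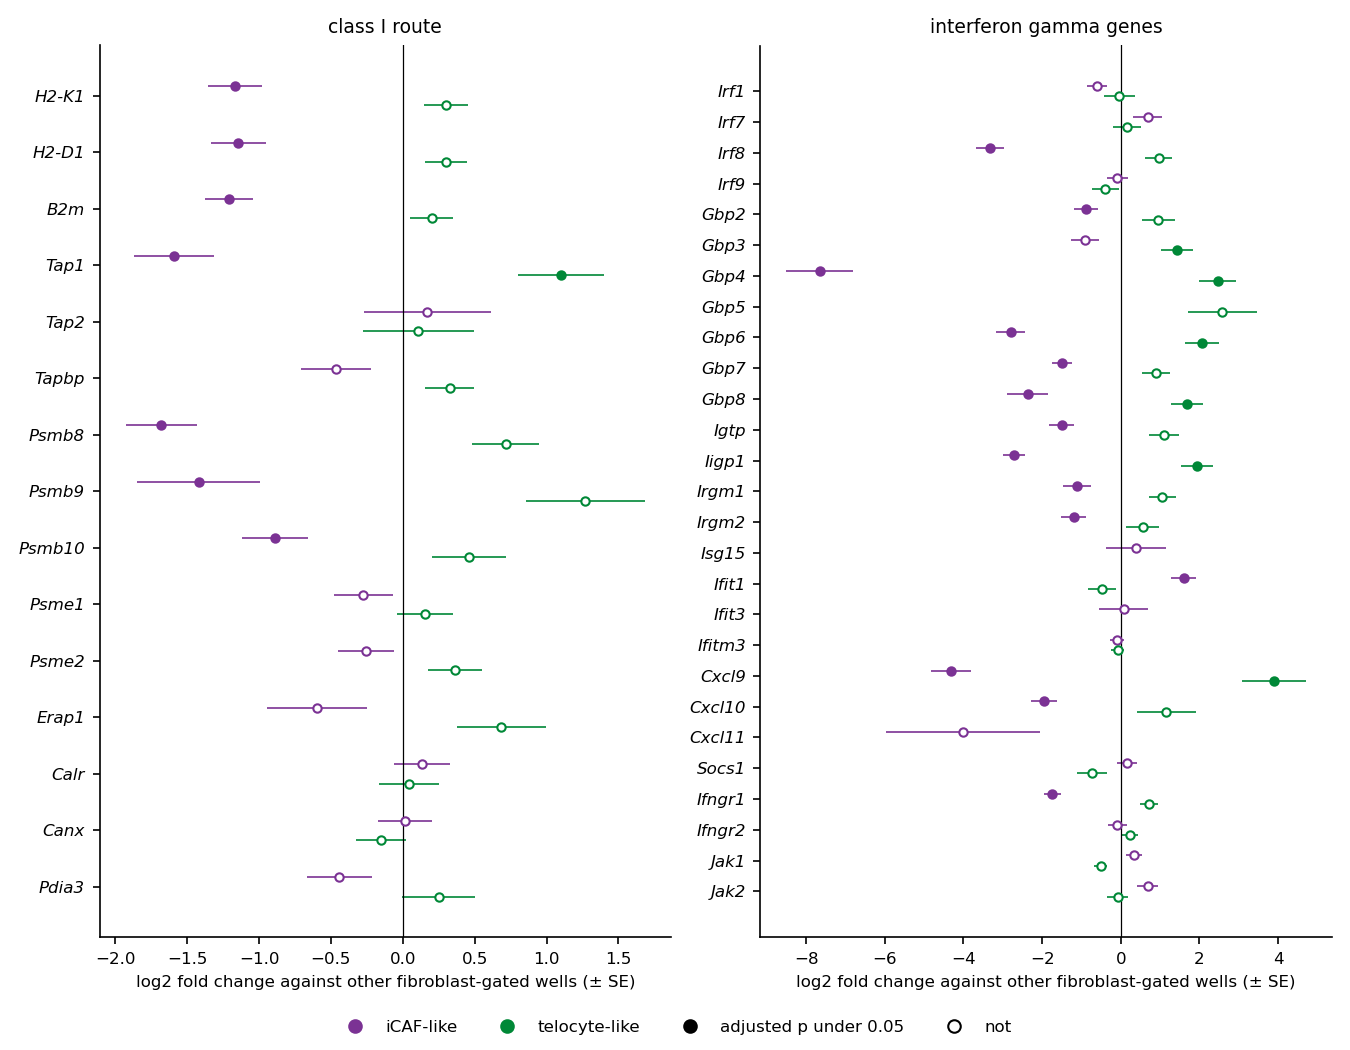
Log2 fold change (± SE) of the class I route and of interferon gamma genes in iCAF-like (purple) and telocyte-like (green) wells against the other fibroblast-gated wells, filled where edgeR's adjusted p was under 0.05. In iCAF-like wells 7 of 15 tested class I route genes and 13 of 26 interferon genes were lower, and in telocyte-like wells 1 and 6 were higher.

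In Cxcl13/Grem1 fibroblasts H2-Ab1 was the 1 member called. These wells carried Cxcl13, a chemokine for B cells, and the Bmp antagonist Grem1. On plates 1, 2, 4 and 5 summed class I stood at 5993, 5925, 4949 and 10025 CPM against 3681, 5481, 3888 and 3261 CPM, and was higher on 4 of 4 plates. Of 10267 genes 3.53% were called (1.28% higher and 2.25% lower), and of the 9 members 1 was lower and 0 higher. B2m, H2-D1 and H2-K1 differed by 0.68 (SE 0.25), 0.65 (SE 0.22) and 0.63 (SE 0.22), with edgeR adjusted p = 0.196, 0.164 and 0.167. H2-Ab1 was lower by -2.35 (SE 0.56, edgeR adjusted p = 0.026), with 11 transcripts in 148 wells, but was higher on plate 5 and lost its call in 5 of 12 alternatives. The other fibroblasts held 103 H2-Ab1 transcripts, of which 85 were in telocyte-like wells. The H2-Ab1 comparisons of the subtypes thus share wells and are not separate results. Of the interferon list 1 of 27 genes was called, Cxcl9 (-3.40, SE 0.40). Icosl, the ligand of the costimulatory receptor ICOS, was higher (1.596, SE 0.33) and Nt5e, which encodes CD73, lower (-2.41, SE 0.61).

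The genotype comparison asked whether the loss of Zeb1 in fibroblasts went with other levels of the members. In the 928 CAF wells, which hold at most 1 rounded transcript each of Ptprc and of Epcam, 0 of 9747 genes (0%) were called by edgeR, 106 had an unadjusted p under 0.05, and DESeq2 called 0. In the fibroblast-gated wells 0 of 8577 genes (0%) were called by edgeR, 130 had an unadjusted p under 0.05, and DESeq2 called 1. Each member tested had a negative difference (Fib ΔZeb1 minus Fib Ctrl) in both fits, and 0 were called. Without plate 3, H2-K1 and H2-D1 turned positive in both fits, and so did Cd274 in CAF and B2m in fibroblast-gated wells. In fibroblast-gated wells H2-Ab1 differed by -1.47 (SE 0.58, edgeR unadjusted p = 0.0338, adjusted p = 0.9998), Tap1 by -0.52 (SE 0.45), B2m by -0.28 (SE 0.32), H2-D1 by -0.17 (SE 0.28) and H2-K1 by -0.02 (SE 0.30). In CAF wells H2-Ab1 differed by -1.23 (SE 0.53, edgeR unadjusted p = 0.0499), Tap1 by -1.12 (SE 0.65), Cd274 by -0.78 (SE 1.09), H2-D1 by -0.49 (SE 0.39), B2m by -0.45 (SE 0.40) and H2-K1 by -0.27 (SE 0.35). Of the 928 CAF wells 197 were neutrophil-like, and the neutrophil list stood at 423 to 22560 CPM over the plates. Without those wells, an alternative chosen after the data had been seen, the differences were -1.39 for H2-Ab1, -0.71 for Tap1, -0.33 for H2-D1, -0.47 for B2m and -0.21 for H2-K1, and Cd274 did not pass the filter on counts. The difference in H2-Ab1 kept its sign in the 12 alternatives of each fit, from -1.84 to -0.98 in fibroblast-gated and from -1.65 to -0.78 in CAF wells. The H2-Ab1 levels of the genotypes overlapped, since 24.7 CPM on plate 6 lay above 23.1 CPM on plate 1.

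The share of telocyte-like wells among the fibroblasts, which bears on H2-Ab1, was 14.0%, 41.2% and 66.7% on plates 1, 3 and 4 and 26.8%, 6.84% and 40.0% on plates 2, 5 and 6. iCAF-like wells, with less class I, made up 38.0%, 29.4% and 8.77% against 15.9%, 65.8% and 26.7%. The part of this makeup in the differences by genotype was not tested.

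Summed levels were tested by exact permutation over the plates, two-sided, where 3 plates against 3 cannot give a p below 0.10. On the log2(CPM + 1) scale, class I in fibroblasts was 12.34 ± 0.47 in Fib Ctrl against 12.14 ± 0.30 in Fib ΔZeb1 (mean ± SD, n = 3 each), a difference of -0.20 (exact permutation p = 0.6). Class II over all wells was 6.24 ± 1.22 and 5.31 ± 0.87, a difference of -0.93 (exact permutation p = 0.5), and in wells with 0 Ptprc transcripts it was 6.07 ± 1.75 and 4.98 ± 0.80, a difference of -1.09 (exact permutation p = 0.5). Both differences were smaller than the SD of the Fib Ctrl plates and larger than that of the Fib ΔZeb1 plates, and the genotypes overlapped. Without plate 3 they were -0.26 and -0.08. At the 30% mitochondrial limit the first was -2.48 (exact permutation p = 0.2). Cd274 differed by -0.83 in fibroblasts (3.329 ± 1.505 against 2.502 ± 0.835, exact permutation p = 0.5) and by -0.13 in all wells (5.13 ± 2.10 against 5.01 ± 0.66, exact permutation p = 1). The share of fibroblast-gated wells with at least 3 class II transcripts was 11.9% ± 10.1 against 7.56% ± 10.8 (exact permutation p = 0.5), and without Ptprc wells 10.6% ± 8.22 against 7.58% ± 10.8 (exact permutation p = 0.6). The plate of Fib ΔZeb1 mouse 6 bears another flow cell name than the other plates, and without it the differences were -0.16 for class I, -1.33 and -1.44 for class II, and -1.18 and -0.49 for Cd274. Without plate 3 the difference was 0.07 for class I, and for Cd274 it was -0.02 in fibroblasts and 1.08 in all wells. Neutrophil-like wells, with 77.6% of the Cd274 transcripts of all wells, ranged from 20 of 226 wells on plate 1 to 188 of 221 on plate 3. Their part in the Cd274 difference over all wells was not tested.

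**Figure D5:**
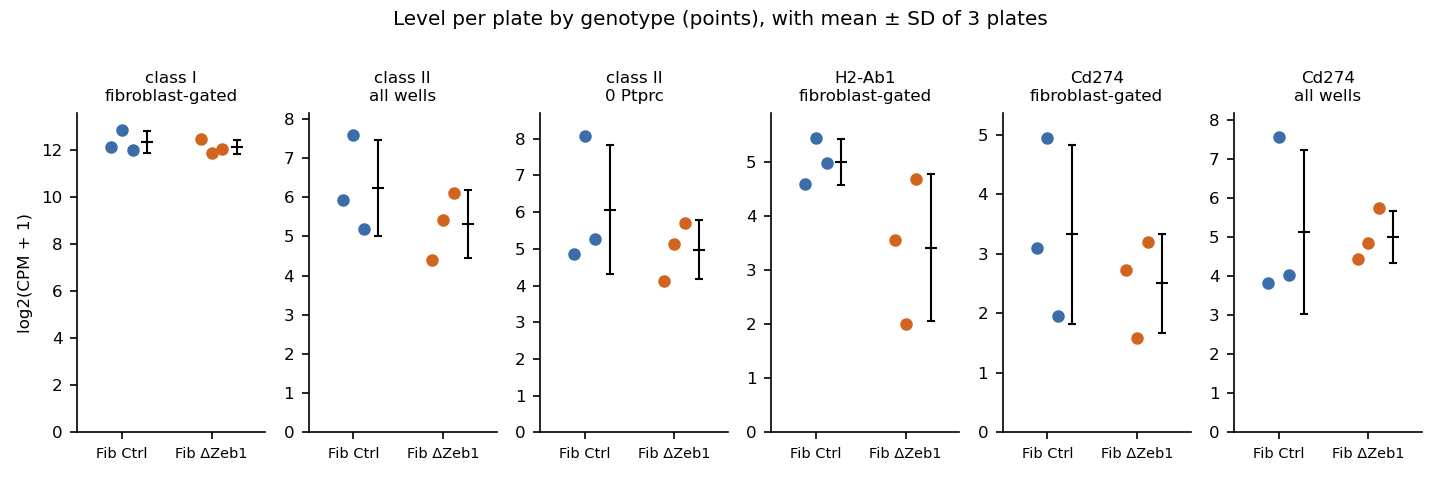
Level per plate as log2(CPM + 1) of summed class I, summed class II, H2-Ab1 and Cd274 in Fib Ctrl (blue) and Fib ΔZeb1 (orange), with the mean and SD of 3 plates beside the points. The genotypes overlapped in each panel, and plate 3 was the highest Fib Ctrl point in each.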

How the data were processed

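The series holds SORT-seq plates from AOM/DSS colon tumors of 6 mice, 3 per genotype, grouped by the genotype label. Per the study's methods, the authors took well and molecular barcode from read 1 and mapped read 2 to the GRCm38 transcriptome with bwa. The barcode counts, as deposited, give how many distinct molecular barcodes a gene had in a well. From these the authors estimated transcripts by correcting for molecules with the same barcode, and the resulting estimated counts were used here. Neither is normalized. The submitters' processing notes also list Cell Ranger 2.1.1, with no role given.

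Here, transcript counts were summed over the wells of a type on a plate (at least 5 wells), rounded and tested with edgeR 4.0.16 (R 4.3.3, TMM, filterByExpr, quasi-likelihood test, Benjamini-Hochberg adjusted p under 0.05), with the plate as a block in comparisons of types. SE is the log2 fold change divided by the root of the F statistic. Spike-in RNA (7.85% to 18.6% of a plate's transcripts) was left out. A gate needed 3 detected markers (2 for a subtype) and a score 1.2 times that of the next list. No doublet caller was run. Although 1 cell was sorted per well, some wells held markers of more than 1 cell type. Cells were not treated as replicates: each plate is 1 mouse. The p-values of the genotype comparisons measure the spread between plates. Those of the type and subtype comparisons measure how the difference within a plate varied over plates. Single values were tested by exact permutation, with Python 3.11.15 and scipy 1.17.1. Shares have exact Clopper-Pearson 95% intervals, and a share of 0 has a limit of 3 counts.

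Alternatives were DESeq2 1.42.0, no filter on counts, a 30% mitochondrial limit, barcode counts, a lead of 1.5 times between lists, a pseudocount of 10, and leaving out each plate. Wells with 0 Ptprc transcripts in the subtype comparisons, CAF wells without the neutrophil-like ones, and the telocyte-like comparison without plate 1 and without the filter were chosen after seeing the data. The named genes were the 9 members and, of each pathway list and comparison, up to 4 genes with the lowest unadjusted p. Further genes named to complete a count (Nlrc5, Psmb9, Cd47 and others) were chosen after their values were seen. The members, markers and lists were chosen with earlier results of these data known. The scripts were checked on simulated counts. Promoters are those of RefSeq, matched by symbol, and H2-Ab1 was not matched. A gene of the interferon list is not reported here and is left out of its counts.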

Additional observations from a re-analysis of the deposited data

Results flagged for a closer look

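A signal outside the wells of the comparisons was the class II sum of the wells beyond the limits on genes and mitochondrial transcripts, at 2101.54 transcripts against 495.3 in the wells within them. Of it, 1184.99 transcripts lay in the richest well, on plate 3, which also led in dendritic cell markers, and that well alone held 75.0% of the 1579.09 class II transcripts of its plate. With the mitochondrial limit at 30%, which takes that well in, the genotype difference of summed class II over all wells was -2.48 on the log2(CPM + 1) scale (exact permutation p = 0.2) in place of -0.93 (exact permutation p = 0.5). With 3 plates per genotype, no plate was tested for standing apart within its group.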

How the results depend on the processing

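Of the members' log2 differences under an alternative, 537 kept their direction and their side of the threshold, 22 lost a call, 1 gained one (B2m in Cxcl13/Grem1 fibroblasts at the 30% mitochondrial limit) and 28 turned sign, among values that had not been called. The cause was not tested. No paired analysis was possible because the replicate numbers follow the order of the samples and pair no mice.

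Calls moved by over 1.5 times in pericyte-like wells at the 30% limit (1343) and in Cxcl13/Grem1 fibroblasts with DESeq2 (164) or no filter (570), and DESeq2 called 1 gene by genotype in fibroblasts. With 1 plate left out, calls ranged from 492 (without plate 2) to 984 in pericyte-like, 126 (without plate 1) to 369 in Cxcl13/Grem1, 755 (without plate 1) to 1223 in iCAF-like and 555 (without plate 1) to 1106 in telocyte-like wells, which had 665 without plate 2.

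At the 30% limit the values that turned sign were -0.23 for B2m and 0.037 for Tap1 in pericyte-like wells, 1.37 for H2-Aa, 1.03 for H2-Eb1 and 0.67 for Cd74 in Cxcl13/Grem1 fibroblasts, and -0.049 for H2-Aa and -0.18 for Cd74 in iCAF-like wells. With DESeq2 they were 0.052 for H2-K1 in epithelial and -0.025 for B2m in pericyte-like wells, and without the filter -0.085 for the latter. With the lead of 1.5 times Cd74 was -4.17 in pericyte-like and -1.18 in iCAF-like wells, and with 0 Ptprc transcripts 0.50 in Cxcl13/Grem1 and -0.10 in iCAF-like wells.

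With 1 plate left out, H2-K1 in epithelial wells ranged from -0.25 to 0.16 and H2-D1 from -0.40 to 0.060, B2m in pericyte-like wells from -0.20 to 0.15 and Cd74 from -4.44 to 1.43, Tap1 in Cxcl13/Grem1 fibroblasts from -0.37 to 0.088, and Cd74 in iCAF-like wells from -0.14 to 1.03. By genotype, CAF wells ranged from -0.47 to 0.15 for H2-K1, from -0.71 to 0.0032 for H2-D1 and from -1.395 to 1.202 for Cd274, and fibroblasts from -0.20 to 0.24 for H2-K1, from -0.37 to 0.092 for H2-D1 and from -0.49 to 0.042 for B2m. Summed class I ranged from -0.37 to 0.068, and Cd274 in all wells from -0.78 to 1.08. Each of these by genotype turned positive without plate 3, H2-K1 in fibroblasts also without plate 6 (0.18) and Cd274 in all wells also without plate 2 (0.16). The share of fibroblasts with class II transcripts differed by -10.6 to 1.42 points. With 0 Ptprc transcripts it differed by -9.24 to 1.66 points (0.327 without plate 5), by 0 at 10 transcripts and by 0.161 at 1000 barcodes.

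Plates 3 and 6 held 17 and 15 fibroblast-gated wells, against 57 to 171 on the others, so that their sums carry more counting error. Class II and Cd274 in fibroblasts rest on 200.02 and 42 transcripts in all. The Myoc/Angptl7 comparison was not run.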

Other observations

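The genes whose levels ran most like the members' were ranked over the 20 sums of a gated cell type on a plate, among 7132 genes of at least 20 CPM on average. The sums share plates and depth, so that the values are a description. For Cd274, the nearest were Lrg1 (Pearson r = 0.95), a secreted glycoprotein of neutrophil granules, Nfkbid (0.95), a regulator of NF-kB, Tmem154 (0.94), Ankrd33b (0.94) and Clec7a (0.93), the receptor Dectin-1. For summed class I they were Glipr2 (0.78), Sbno2 (0.76), Vmn1r65 (0.76), Nab1 (0.76) and Tcn2 (0.75), and for summed class II Zfp513 (0.88), Pex16 (0.82), Lipi (0.82), Fam110a (0.81) and Atrn (0.78). The genes named for class II averaged only 21.0 to 44.9 CPM. Among the 20 sums was the epithelial one of plate 3, with Cd74 at 1048 CPM, mostly from 1 well. The weight of that sum in the class II values was not tested.

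Epithelial wells differed between plates in B2m more than fibroblasts did. B2m stood at 2000, 5671 and 1770 CPM in those of the Fib Ctrl plates 1, 3 and 4 and at 639 and 400 CPM in those of the Fib ΔZeb1 plates 5 and 6. Plate 2 had under 5 such wells. How many other genes part these 5 plates in the same way was not counted. Plates 1 and 3 had 5 epithelial wells each, and plates 4, 5 and 6 had 29, 28 and 17. Over these 5 plates the list of squamous epithelial markers ranged from 494 to 9768 CPM and that of glandular ones from 809 to 10098 CPM. Neither the difference between genotypes in these wells nor the part of this makeup in it was tested.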
